A study of Homo sapiens with 14 samples.

Results

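The comparison described here is the difference between PLB-985 and HL-60 cells in how gene expression changed with DMSO. It was taken for every gene as the change in PLB-985 cells (DMSO day 6 minus undifferentiated) minus the same change in HL-60 cells, so a positive value is a larger rise or a smaller fall in PLB-985 cells. It rests on 8 of the 14 libraries of the series, 2 replicates in each of 4 groups. RNA was polyA enriched and sequenced from undifferentiated cells of each line, kept in medium with 9% FBS and no DMSO, and from cells after 6 days in medium with 9% FBS and 1.3% DMSO. The study used PLB-985 cells that carry an H2B-mCherry reporter in all its experiments. It does not say whether the HL-60 cells carried one. If they did not, an effect of the reporter and one of the line cannot be told apart. HL-60 is a human promyelocytic leukemia line, and the study regards PLB-985 as a sub-line of it rather than an independent isolate. The study ran the RNA-seq experiment on 2 independent days, and each replicate number holds 1 library of every group. The labels do not give the day of a library.

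DMSO drives both lines out of the cell cycle and toward a neutrophil-like state, in which they gain chemoattractant receptors, Fc receptors and the NADPH oxidase and lose the early granule proteins and the ribosome-building program of the blast. HL-60 cells are bipotent, since other agents turn them into monocyte- or macrophage-like cells, whose textbook markers include the lipopolysaccharide co-receptor CD14. A neutrophil-like line is judged by both sides of this choice, the neutrophil genes it gains and the genes of other lineages it leaves off.

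All levels below are normalized FPKM (fragments scaled to transcript length and library size, then scaled between libraries by the authors), and all changes and differences are on the scale of log2(normalized FPKM + 1), which understates the change of genes at low levels. The tables hold no read counts. Steps in the lowest FPKM values, each a whole read, put the depth of the 8 libraries within 0.865 to 1.21 times that of PLB-985 undifferentiated replicate 1, and the absolute depth is unknown. Mitochondrial transcripts took 2.6 to 7.02% of the FPKM in undifferentiated and 5.3 to 14.2% in DMSO libraries, and were higher in replicate 2 in every group. The differentiation itself was visible in both lines. ITGAM, the CD11b integrin chain, was at 1.92 and 1.63 in undifferentiated and 88.7 and 101.2 in DMSO-treated PLB-985 cells, and at 2.51 and 2.58 against 160.4 and 150.3 in HL-60 cells. Undifferentiated HL-60 libraries differed from each other in eosinophil granule genes, with PRG2, the eosinophil major basic protein, at 2.73 and 358, and the summed level of 19 eosinophil, basophil and mast cell markers at 212 and 744. These sums were 738 and 892 in undifferentiated PLB-985 cells, 162 and 124 with DMSO, and 103 and 70.5 in HL-60 cells with DMSO. None of the 10 of these markers that were tested passed for a line difference in the response.

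The responses of the lines were much alike. Across the 13778 genes tested, those that reached 1 normalized FPKM in 2 or more of the 12 libraries with a replicate, Pearson's r between the 2 responses, which share no library, was 0.90, Spearman's rho was 0.90, and 88.2% of the genes moved in the same direction. The line difference passed an adjusted p of 0.05 (limma, two-sided, Benjamini-Hochberg over all genes tested) for 180 genes, 1.31% of those tested. Of these, 60 were higher (0.435%) and 120 lower (0.871%) in PLB-985 cells. For comparison, the DMSO response itself passed for 60.4% of the genes in PLB-985 cells (24.6% rose and 35.8% fell) and for 60.7% in HL-60 cells (26% rose and 34.7% fell). The median line difference was −0.03 over all genes. Among the 180 genes the median size was 1.68 and the smallest 0.78, with 69 genes at a log2 of 2 or more.

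Over all genes tested, the line difference in replicate 1 and that in replicate 2, from 4 libraries each, had a Pearson's r of 0.35 and the same sign in 59.6%. The number of genes depended on each library. It was 71 without PLB-985 undifferentiated replicate 1, 97 without replicate 2 of that group, 57 and 67 without replicate 1 and 2 of PLB-985 with DMSO, and 72 and 49 without replicate 1 and 2 of HL-60 with DMSO. Without the undifferentiated HL-60 libraries it was 198 and 170. Of the 180 genes, 47 passed in all 8 of these fits and 34 in none. Without the replicate term, which leaves the log2 values as they are and widens their errors, 114 genes passed.

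**Figure D1:**
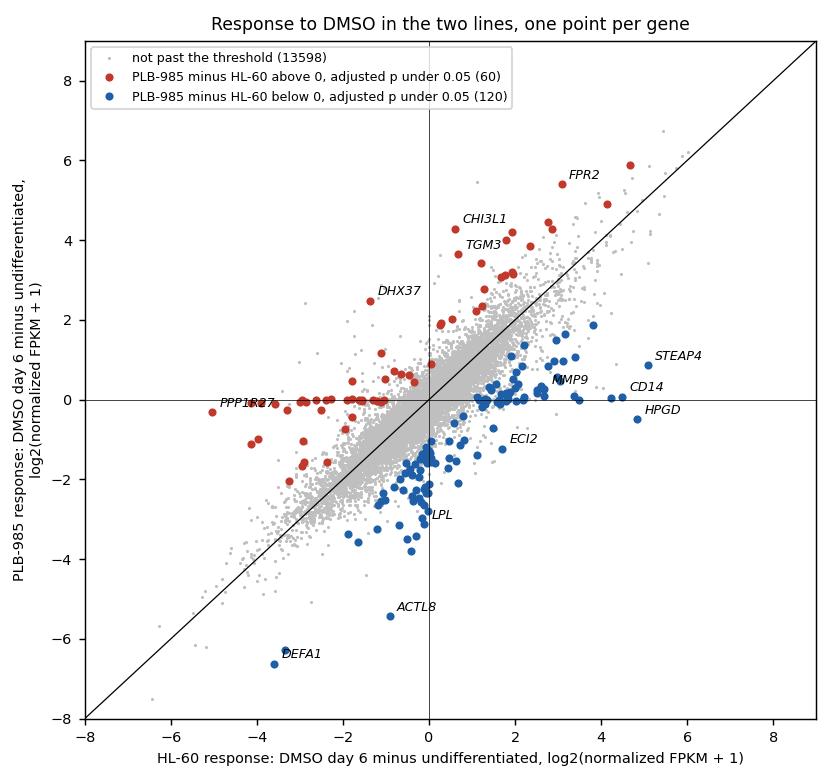
Change with DMSO in HL-60 cells (x axis) and in PLB-985 cells (y axis), both DMSO day 6 minus undifferentiated in log2(normalized FPKM + 1), 1 point per gene for the 13778 genes tested, with the line of equal response. The 60 genes with a higher response in PLB-985 cells (red) and the 120 with a lower one (blue) lie away from that line, many of them along the axis where 1 of the lines stayed near 0.

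A difference between 2 responses is by construction a change in the gap between the lines, so the 180 genes were sorted by the state in which PLB-985 and HL-60 levels differed (adjusted p under 0.05, a gap found for 14.1% of all genes before DMSO, 7.88% with PLB-985 and 6.25% with HL-60 higher, and for 10.4% after it, 5.14% and 5.23%). The largest group, 93 genes, had a gap in undifferentiated cells that did not pass after DMSO. Of these, 60 had been higher in undifferentiated PLB-985 and 33 in undifferentiated HL-60 cells. A further 46 genes had no passing gap before and one after DMSO, and in 39 of them HL-60 cells were higher. The gap passed in both states for 41 genes, 32 with the same line higher and 9 with the order turned.

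**Figure D2:**
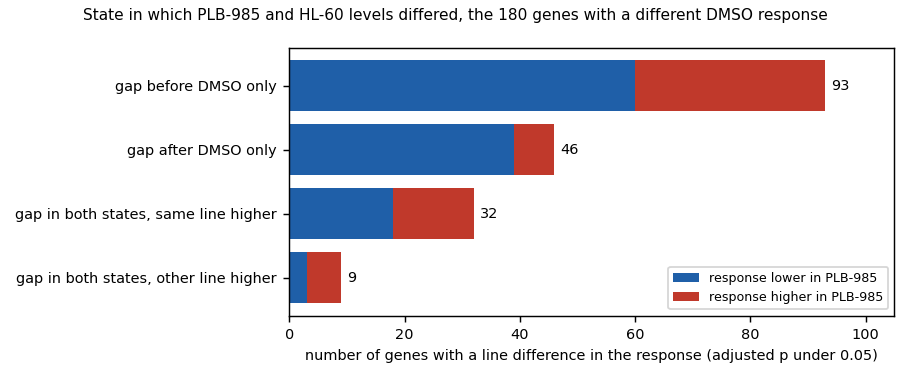
Number of the 180 genes by the state in which the level of PLB-985 and HL-60 cells differed, with bars split by the sign of the line difference in the response. Genes that differed before DMSO only made up 93 of the 180, and genes that differed after DMSO only made up 46.

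Many of the 180 genes were nearly silent in 1 of the lines. In all 4 PLB-985 libraries 52 of them (28.9%) stayed below 1 normalized FPKM, against 5.06% of all genes tested, and in all 4 HL-60 libraries 43 (23.9%) did, against 4.19%. The other 85 reached 1 in at least 1 library of each line. A gene silent in these libraries of 1 line could pass the filter only through other libraries. The added 1 also compresses its values there, so part of this excess is built in by filter and scale. With 0.1 added, 65 of the 180 still passed.

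Of the 120 genes with a lower value in PLB-985 cells, 35 rose in HL-60 cells with no passing change in PLB-985 cells, among them 5 of the 15 most negative protein-coding genes, and another 15 rose in both lines but less in PLB-985. HPGD, the dehydrogenase that inactivates prostaglandins (chromosome 4), was at 0.895 and 0.107 in undifferentiated and 0.0294 and 0.0381 in DMSO-treated PLB-985 cells, and went from 0.309 and 0.782 to 41.2 and 44.1 in HL-60 cells. Only the HL-60 libraries with DMSO were above 1, and the line difference was −5.32 ± 0.48 (SE, adjusted p = 0.0029). CD14 (chromosome 5) stayed between 0.0278 and 0.837 in the 4 PLB-985 libraries, was at 1.5 and 1.04 in undifferentiated HL-60 cells and reached 44.5 and 55.2 with DMSO. Its difference was −4.41 ± 0.40 (adjusted p = 0.0029). The metalloreductase STEAP4 rose in both lines, from 0.362 and 0 to 0.801 and 1.51 in PLB-985 and from 0.131 and 0.406 to 35.7 and 48.9 in HL-60 cells, a difference of −4.22 ± 0.36 (adjusted p = 0.0027).

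Other genes of this kind were low or absent in PLB-985 cells throughout. LPAR6, a receptor for lysophosphatidic acid, had at most 0.141 in PLB-985 and undifferentiated HL-60 libraries and 16.1 and 20.2 in HL-60 cells with DMSO. Its difference of −4.20 ± 0.50 (adjusted p = 0.0075) missed the threshold without replicate 2 of either DMSO group, at adjusted p = 0.054 for PLB-985 and 0.058 for HL-60. The plexin-domain membrane protein PLXDC2 was at 9.85 and 12.9 in HL-60 cells with DMSO and at 0.0219 or less in every PLB-985 library (−3.49 ± 0.21, adjusted p = 0.0009). CKAP4, an endoplasmic reticulum membrane protein, was at 11 and 11.1 in HL-60 cells with DMSO and at 0.26 or less in the other 6 libraries (−3.29 ± 0.32, adjusted p = 0.0033). HPGD, CD14, STEAP4, PLXDC2 and CKAP4 passed in all 8 fits with a library left out. With 0.1 in place of 1 added before the log, which gives low levels more weight, CD14 and STEAP4 missed the threshold (adjusted p = 0.126 and 0.125).

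**Figure D3:**
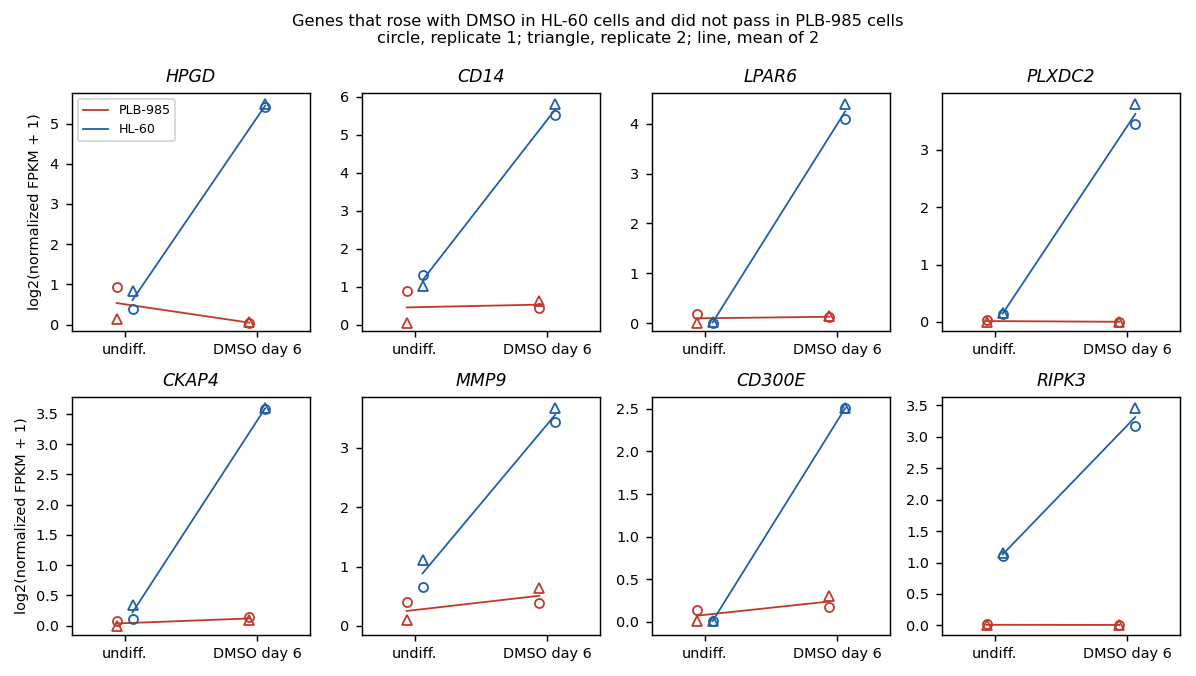
Level of 8 genes in each library, in log2(normalized FPKM + 1) on axes that start just below 0, for PLB-985 (red) and HL-60 (blue) cells before and after 6 days with DMSO. Circles are replicate 1, triangles replicate 2 and lines join the means of 2. In each gene both HL-60 libraries with DMSO lie above the other 6, and the PLB-985 points stay near the base.

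Monocyte genes were part of this group. Of a list of 20 monocyte and macrophage markers, 13 were tested and 3 passed with a lower value in PLB-985 cells, CD14 and CD300E among them, with none higher (23.1%, against 1.31% of all genes). The median over the 13 was −0.36, against −0.03 over all genes. CD300E, an activating receptor of monocytes, was at 4.67 and 4.71 in HL-60 cells with DMSO and at 0.236 or less in the other libraries (−2.33 ± 0.23, adjusted p = 0.004).

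The list did not move as a whole. CSF1R, the receptor of macrophage colony-stimulating factor, was at 1.25 and 1.23 in PLB-985 and 7.78 and 8.73 in HL-60 cells with DMSO and missed the threshold (−1.73, adjusted p = 0.054). CD68, a lysosomal glycoprotein, was at 42.9 and 39.8 in PLB-985 and 59.2 and 60 in HL-60 cells with DMSO, a difference of 0.50 (adjusted p = 0.306). The macrophage receptors MRC1 and MSR1 and the elastase MMP12 were at 0 in all 8 libraries. The summed level of the 20 markers was 20.7 and 25.8 in undifferentiated and 55.9 and 51.5 in DMSO-treated PLB-985 cells, and went from 34.8 and 29.6 to 132 and 144 in HL-60 cells. In bulk RNA, more cells of a type and more RNA per cell cannot be told apart, and the part of monocyte-like cells in these differences was not tested.

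Of 14 tested membrane proteases, ADAMs and TIMPs, MMP9 and ADAM28 passed, both lower in the PLB-985 response (14.3%, against 1.31% of all genes, median 0.00). MMP9, the gelatinase of neutrophil granules and macrophages, was at 0.301 and 0.552 in PLB-985 and 9.83 and 11.8 in HL-60 cells with DMSO, from 1.15 or less before (−2.42 ± 0.31, adjusted p = 0.011). Its adjusted p was between 0.067 and 0.071 when any of the 4 DMSO libraries was left out, and 0.20 with 0.1 added before the log. The protease ADAM28 rose from 0.372 and 0.123 to 1.76 and 1.58 in HL-60 cells and stayed below 0.1 in PLB-985 cells (−1.05 ± 0.19, adjusted p = 0.045). It passed only in the fit without HL-60 undifferentiated replicate 1, and the adjusted p was up to 0.23 without each of the other 7 libraries. ADAM28 also missed the threshold under 7 of 11 other settings, the fit without the replicate term among them (0.087). Of the genes picked after their values were seen, the necroptosis kinase RIPK3 was at 0.012 or less in all PLB-985 libraries and went from 1.15 and 1.23 to 7.97 and 10.02 in HL-60 cells (adjusted p = 0.0045). The transcription factor MEF2C reached 6.83 and 5.72 in HL-60 and 0.418 and 0.214 in PLB-985 cells (adjusted p = 0.0059), but missed the threshold with 0.1 added before the log.

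The promoters of the 5 genes that were among the 15 most negative and whose rise passed in HL-60 cells alone are shown because the genes moved together. They are RefSeq sequences on GRCh38.p14, from 250 bases before to 50 bases after the start of the gene, read 5′ to 3′ on the gene's strand. Capitals mark GAGGAA on either strand, the core of the site of the myeloid factor PU.1, and TTNNGNAA on either strand, a form of the C/EBP site. The 2 motifs did not overlap in these promoters.
HPGD (chr4:174522439-174522738, minus strand): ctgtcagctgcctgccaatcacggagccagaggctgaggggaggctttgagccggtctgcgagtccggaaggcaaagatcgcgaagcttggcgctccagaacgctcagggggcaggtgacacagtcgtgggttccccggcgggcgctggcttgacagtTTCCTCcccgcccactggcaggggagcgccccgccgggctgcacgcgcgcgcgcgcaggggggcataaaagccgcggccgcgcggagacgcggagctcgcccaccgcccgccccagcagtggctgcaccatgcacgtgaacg
CD14 (chr5:140633126-140633425, minus strand): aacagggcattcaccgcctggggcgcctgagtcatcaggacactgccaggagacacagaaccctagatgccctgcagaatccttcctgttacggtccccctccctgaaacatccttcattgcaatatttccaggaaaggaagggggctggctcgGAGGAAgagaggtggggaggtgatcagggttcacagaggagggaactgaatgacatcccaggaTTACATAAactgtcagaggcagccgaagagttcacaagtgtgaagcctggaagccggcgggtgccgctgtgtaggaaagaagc
LPAR6 (chr13:48413064-48413363, minus strand): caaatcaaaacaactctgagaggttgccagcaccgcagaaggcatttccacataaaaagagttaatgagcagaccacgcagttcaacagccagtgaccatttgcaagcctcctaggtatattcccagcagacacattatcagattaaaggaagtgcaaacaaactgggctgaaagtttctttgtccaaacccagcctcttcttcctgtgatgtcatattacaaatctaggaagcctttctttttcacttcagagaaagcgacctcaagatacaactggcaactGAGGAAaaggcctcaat
PLXDC2 (chr10:19816182-19816481, plus strand): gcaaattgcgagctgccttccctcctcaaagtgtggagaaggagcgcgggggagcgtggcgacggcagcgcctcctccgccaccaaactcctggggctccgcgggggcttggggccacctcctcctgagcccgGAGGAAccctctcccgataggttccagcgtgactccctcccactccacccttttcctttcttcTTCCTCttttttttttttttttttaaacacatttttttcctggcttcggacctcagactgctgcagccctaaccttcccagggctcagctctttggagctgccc
CKAP4 (chr12:106247971-106248270, minus strand): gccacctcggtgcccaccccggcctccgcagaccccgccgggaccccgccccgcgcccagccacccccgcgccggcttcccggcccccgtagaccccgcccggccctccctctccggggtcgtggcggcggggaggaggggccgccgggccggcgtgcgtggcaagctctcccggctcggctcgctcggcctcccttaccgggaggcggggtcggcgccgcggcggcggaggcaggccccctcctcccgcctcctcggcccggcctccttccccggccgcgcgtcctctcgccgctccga

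GAGGAA was found once in HPGD, CD14 and LPAR6, at 2 places in PLXDC2 and not in the CKAP4 window, and TTNNGNAA once, in CD14. Among all 27305 promoters of the table, 27.6% hold GAGGAA and 37.2% TTNNGNAA, so single matches are common. CpG pairs numbered 8 in the CD14 and 3 in the LPAR6 window, against 14 in PLXDC2, 34 in HPGD and 46 in CKAP4, so the genes shared no single type of promoter. A comparison over all genes that rose in HL-60 cells alone is void, because a promoter was matched for only 73.5% of the 34 protein-coding ones.

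Genes of undifferentiated PLB-985 cells that were lost with DMSO made up most of the other negative values. Their fall passed in PLB-985 cells with no passing change in HL-60 cells for 41 genes. A further 19 fell in both lines, but more in PLB-985 on the scale with 1 added. ACTL8, an actin-like protein best known from testis, fell from 64.8 and 52.0 to 0.57 and 0.197 in PLB-985 cells, and from 1.11 and 0.715 to 0.0118 and 0 in HL-60 cells. The libraries of undifferentiated PLB-985 cells stood apart from the other 6, and the difference was −4.51 ± 0.35 (adjusted p = 0.0023). In proportion the fall was similar in both lines, with means from 58.4 to 0.383 in PLB-985 and 0.911 to 0.00593 in HL-60 cells. The difference thus depends on the 1 added before the log, and with 0.1 its adjusted p was 0.0492. LPL, lipoprotein lipase, was at 9.53 and 10.2 in undifferentiated PLB-985 cells and at 0.255 or less elsewhere (−3.01 ± 0.18, adjusted p = 0.0009). NEFH, a neurofilament chain, went from 22.1 and 21.9 to 2.04 and 1.85 in PLB-985 cells and stayed at 0.225 or less in HL-60 cells (−2.79 ± 0.17, adjusted p = 0.0009). For NEFH the lines still differed after DMSO.

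The metallothionein MT1G fell from 33.5 and 15.8 to 1.05 and 0.484 in PLB-985 cells and was at 1.03 or less in HL-60 cells (−3.36 ± 0.30, adjusted p = 0.0027). ALDH1L2, a mitochondrial folate enzyme, fell from 14.1 and 8.59 to 0.118 and 0.14 in PLB-985 cells and was at 0.493 or less in HL-60 cells (−3.11 ± 0.32, adjusted p = 0.0045). MT1G missed the threshold without the replicate term (adjusted p = 0.079), and ALDH1L2 with 0.1 added before the log (0.141). ACTL8, LPL, NEFH, MT1G and ALDH1L2 passed in all 8 fits with a library left out. SLAMF8, a receptor of activated macrophages, fell from 14.3 and 11 to 0.187 and 0.192 in PLB-985 cells (−2.99 ± 0.49, adjusted p = 0.029), but passed in none of these fits, with adjusted p from 0.061 to 0.155.

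Granule genes of early neutrophil precursors and of the carcinoembryonic antigen family were among the losses. The alpha-defensins DEFA1 and DEFA1B, microbicidal peptides of azurophil granules encoded by near-identical copies on chromosome 8, cannot be told apart reliably. DEFA1 was at 99.0 and 98.4 in undifferentiated PLB-985 and 14.7 and 17.1 in undifferentiated HL-60 cells, and at 0.485 or less with DMSO. The gene fell in both lines, and the line difference of −3.03 ± 0.50 (adjusted p = 0.032) passed in none of the 8 fits with a library left out (0.06 to 0.171). CEACAM8, an adhesion molecule of specific granules, fell from 1.54 and 1.4 to 0.0106 or less in PLB-985 cells and was at 0.125 or less in HL-60 cells (−1.21 ± 0.18, adjusted p = 0.023). CEACAM6 fell from 3.34 and 2.91 to 0.175 and 0.125 in PLB-985 and from 0.963 and 1.11 to 0.592 and 0.183 in HL-60 cells (−1.27 ± 0.22, adjusted p = 0.041). CEACAM8 passed only without either undifferentiated HL-60 library and CEACAM6 only without replicate 2 of that group, with adjusted p up to 0.139 and 0.208 without the others. CEACAM6 also missed the threshold under 7 of 10 other settings, the fit without the replicate term among them (0.093). CD79B, a chain of the B cell receptor complex, was seen at 1.54 and 1.71 in undifferentiated PLB-985 cells only, at 0.0179 or less in the other 6 libraries, and passed in none of the fits (adjusted p = 0.028 with all libraries and 0.06 to 0.163 without one).

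Of 18 specific and gelatinase granule genes, 11 were tested, and MMP9, CEACAM8 and CEACAM6 were lower and CHI3L1 higher in the PLB-985 response (median −0.47). These 4 of 11 are 36.4%, against 1.31% of all genes, but the members do not move one way. The main proteins of specific granules were missing from both lines, with LTF, LCN2, MMP8 and CRISP3 at 0.129 or less in all 8 libraries. Of a list of 15 azurophil granule genes, which does not hold the alpha-defensins, all were tested. Only SERPINB1 passed (6.67%), and it encodes an inhibitor of the neutrophil serine proteases. ELANE, neutrophil elastase, fell in both lines, from 82.3 and 73.7 to 3.17 and 1.3 in PLB-985 and from 127 and 230 to 6.86 and 2.96 in HL-60 cells, and its line difference was 0.28 (adjusted p = 0.944).

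Genes of undifferentiated HL-60 cells that were lost with DMSO gave the mirror image. Their fall passed in HL-60 cells with no passing change in PLB-985 cells for 23 of the 60 higher genes. BEX1, a small adaptor protein known from neurons (chromosome X), fell from 121 and 214 to 9.81 and 6.93 in HL-60 cells and was at 0.0844 or less in all PLB-985 libraries (4.03 ± 0.41, adjusted p = 0.0045). INPP5J, an inositol phosphatase, fell from 10.3 and 9.13 to 0.397 and 0.259 in HL-60 cells and was at 0.0669 or less in PLB-985 cells (2.96 ± 0.25, adjusted p = 0.0027). CLEC11A, a growth factor for blood progenitors, fell from 21.9 and 20.8 to 1.83 and 0.836 in HL-60 cells and was at 0.224 or less in PLB-985 cells (3.04 ± 0.30, adjusted p = 0.004).

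**Figure D4:**
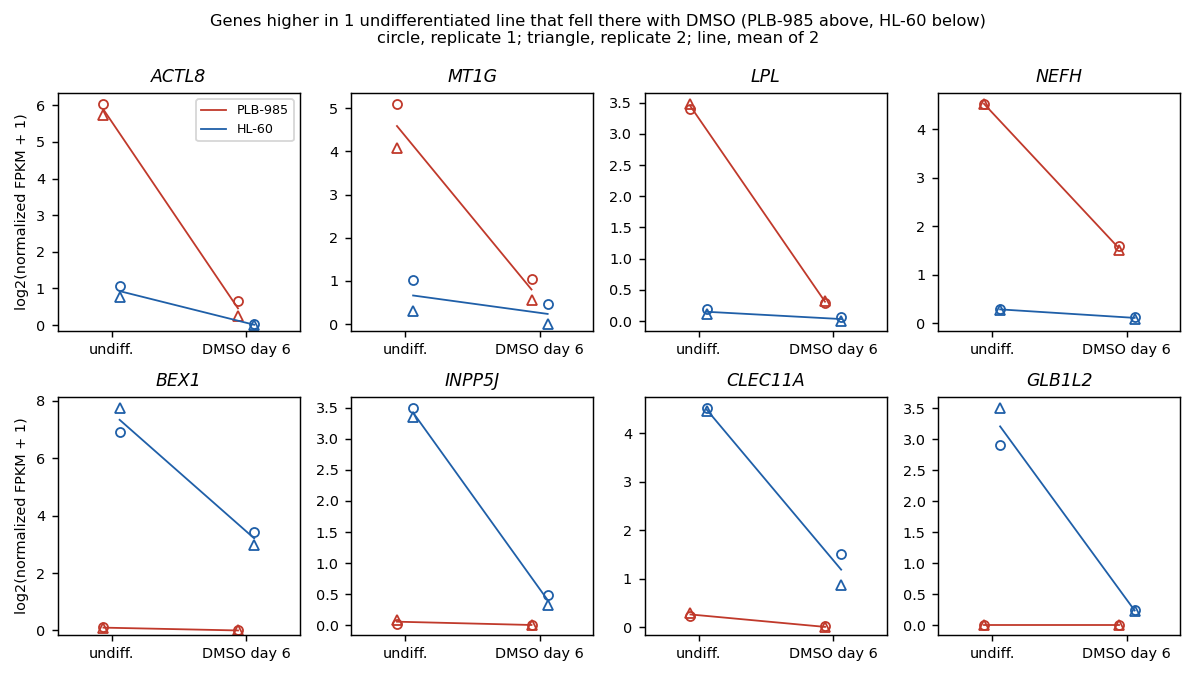
Level of 8 genes in each library, in log2(normalized FPKM + 1), for PLB-985 (red) and HL-60 (blue) cells before and after 6 days with DMSO. Circles are replicate 1, triangles replicate 2 and lines join the means of 2. The upper 4 genes were high in undifferentiated PLB-985 cells and the lower 4 in undifferentiated HL-60 cells, and in each the other line stayed near the base.

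GLB1L2, a beta-galactosidase-like protein, was listed at 0 in all PLB-985 libraries and fell from 6.5 and 10.3 to 0.183 and 0.18 in HL-60 cells (adjusted p = 0.0033). PRDX2, a peroxiredoxin, fell from 11.8 and 9.11 to 0.993 and 0.707 in HL-60 cells and was at 0.0324 or less in PLB-985 cells (2.60 ± 0.26, adjusted p = 0.004). BEX1, INPP5J, CLEC11A, GLB1L2 and PRDX2 passed in all 8 fits with a library left out, but CLEC11A and PRDX2 missed the threshold with 0.1 added before the log (0.097 and 0.059). The atypical cadherin FAT1 fell from 24.6 and 19.8 to 3.83 and 3.01 in HL-60 cells and was absent from PLB-985 cells at 0.0169 or less (2.38 ± 0.29, adjusted p = 0.009), and missed the threshold without PLB-985 undifferentiated replicate 1, PLB-985 DMSO replicate 2 or either HL-60 DMSO library (0.057 to 0.071).

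Some genes lost from HL-60 cells rested on replicates that lay further apart. PPP1R27, a regulatory subunit of protein phosphatase, was at 27.6 and 74.2 in undifferentiated HL-60 cells and at 1.19 or less elsewhere. Its value of 4.71 ± 0.63 (adjusted p = 0.012) passed without either undifferentiated HL-60 library or HL-60 DMSO replicate 1, and had an adjusted p up to 0.087 without each of the other 5. The mitochondrial creatine kinase copies CKMT1A and CKMT1B, near-identical genes that cannot be told apart, were at 11.6 and 30.9 and at 13.2 and 34.3 in undifferentiated HL-60 cells, and at 1.31 or less elsewhere (2.99 ± 0.49 and 3.04 ± 0.51, adjusted p = 0.031 and 0.032). Each passed only without either undifferentiated HL-60 library, and the adjusted p was up to 0.17 and 0.171 without each of the other 6. Both also missed the threshold under 5 of 11 other settings, up to 0.228 and 0.231 with 0.1 added before the log. The fall of CKMT1A passed in PLB-985 cells as well, from 0.97 and 1.095 to 0.0246 and 0.0256 (adjusted p = 0.038). That of CKMT1B did so too, from 1.31 and 1.14 to 0.0402 and 0.0284 (adjusted p = 0.028). CYP51A1, a demethylase of cholesterol synthesis, was at 8.71 and 12.7 in undifferentiated and 3.06 and 1.7 in DMSO-treated HL-60 cells, and at 0.0503 or less in every PLB-985 library (1.81 ± 0.32, adjusted p = 0.044). It was the only one of 18 tested genes of cholesterol synthesis and uptake to pass (5.56%, median −0.12). It missed the threshold under 8 of 11 other settings, at adjusted p from 0.058 to 0.163, the fit without the replicate term (0.059) and both other scalings (0.068 and 0.093) among them. It passed only without replicate 1 of either HL-60 group, and was at up to 0.20 without each of the other 6 libraries.

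A last group of higher genes rose in both lines, and more in PLB-985 cells. There were 18 of them, and in 15 the level before DMSO was lower in PLB-985 cells, against 6.25% of all genes. A lower start in PLB-985 cells raises the difference by construction, so this count is partly built in. FPR2, a formyl peptide receptor of neutrophils (chromosome 19), rose from 0.361 and 0.424 to 42.1 and 80.1 in PLB-985 cells and from 20.9 and 20.4 to 177 and 189 in HL-60 cells. Every HL-60 library lay above the PLB-985 libraries of the same state, although the rise on the log2 scale was larger in PLB-985 cells (5.41 against 3.09, difference 2.32 ± 0.33, adjusted p = 0.017). FPR2 passed in 3 of the 8 fits with a library left out, those without an HL-60 undifferentiated replicate 2 or a PLB-985 DMSO library, and its adjusted p was highest without HL-60 DMSO replicate 2, at 0.104. FPR2 also missed the threshold in a fit of the 8 libraries alone (0.057). TGM3, a transglutaminase, went from 1.17 and 1.2 to 27.4 and 25.1 in PLB-985 and from 0.0851 and 0.0925 to 0.734 and 0.729 in HL-60 cells (2.97 ± 0.25, adjusted p = 0.0027), with the PLB-985 libraries above those of HL-60 in both states. SERPINB1, an inhibitor of the neutrophil serine proteases, rose from 33.6 and 27.2 to 144 and 109.8 in PLB-985 and from 68.8 and 52.1 to 102 and 73.6 in HL-60 cells (1.49 ± 0.16, adjusted p = 0.0053). TGM3 and SERPINB1 passed in all 8 fits, but SERPINB1 missed the threshold without the replicate term (adjusted p = 0.29).

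CHI3L1, a chitinase-like protein of specific granules, changed its order between the lines. It was lower in PLB-985 than in HL-60 cells before DMSO, at 11.1 and 13.3 against 101 and 45.1, and higher afterwards, at 321 and 204 against 138 and 76.7. The rise passed in PLB-985 cells only, and the difference was 3.68 ± 0.47 (adjusted p = 0.011). It missed the threshold without PLB-985 DMSO replicate 1 (0.078), PLB-985 DMSO replicate 2 (0.057) or HL-60 DMSO replicate 2 (0.08).

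**Figure D5:**
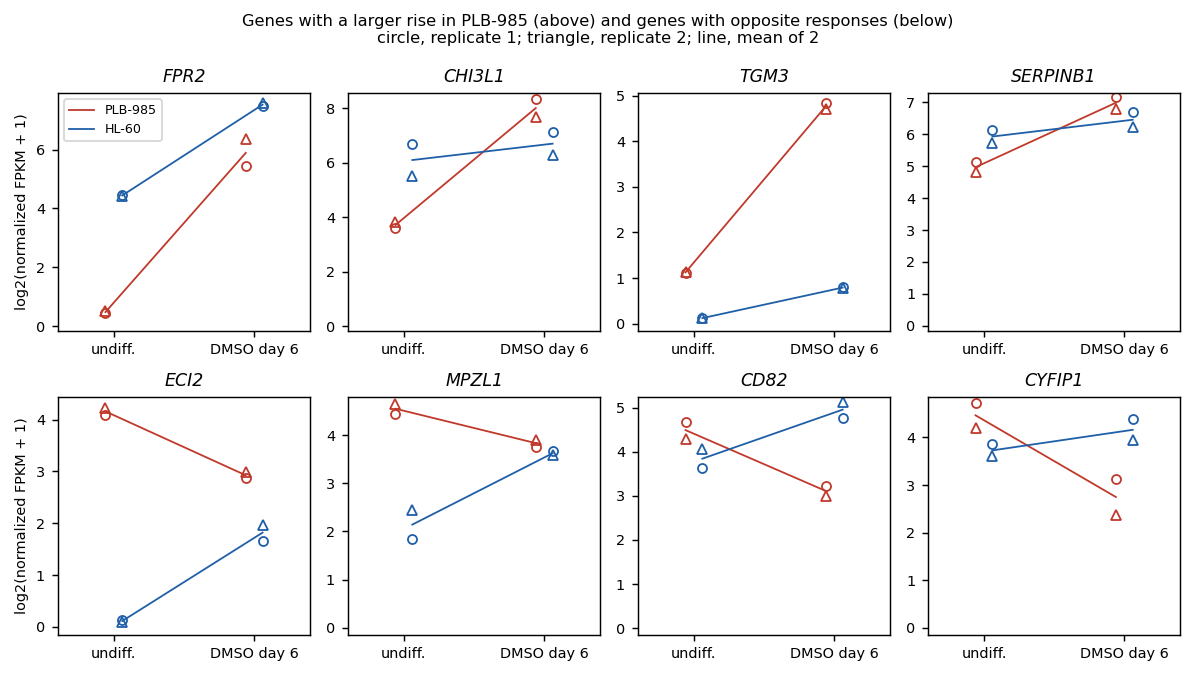
Level of 8 genes in each library, in log2(normalized FPKM + 1), for PLB-985 (red) and HL-60 (blue) cells before and after 6 days with DMSO. Circles are replicate 1, triangles replicate 2 and lines join the means of 2. The upper 4 genes rose more in PLB-985 cells, and in the lower 4 the PLB-985 line falls while the HL-60 line rises.

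Of 17 tested chemoattractant receptors FPR2 passed (5.88%, against 1.31% of all genes), and the median was 0.31. FPR1, the high-affinity formyl peptide receptor, rose from 0.551 and 0.593 to 152 and 185 in PLB-985 and from 1.24 and 2.23 to 116 and 113 in HL-60 cells, and its difference of 1.32 ± 0.35 missed the threshold (adjusted p = 0.15). The interleukin-8 receptor CXCR1 stayed low, at 0.443 and 0.594 in PLB-985 and 1.88 and 1.74 in HL-60 cells with DMSO (−0.87 ± 0.41, adjusted p = 0.452). Of the 19 tested genes of late neutrophil maturation FPR2 alone passed (5.26%, median 0.20), and for S100A8 and S100A9, the calprotectin chains, the differences were 0.20 and 0.09 (adjusted p = 0.96 and 0.978). ITGAM had a difference of −0.35 ± 0.23 (adjusted p = 0.616).

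FCER1G, the signaling chain of Fc receptors, rose from 16.3 and 24.5 to 433 and 382 in PLB-985 and from 66.2 and 63.7 to 486 and 464 in HL-60 cells (1.43 ± 0.26, adjusted p = 0.047), and passed in 1 of the 8 fits, that without PLB-985 undifferentiated replicate 2, with an adjusted p up to 0.221 without the others. It missed the threshold under 8 of 11 other settings as well, at adjusted p from 0.051 to 0.10, the fit without the replicate term among them (0.071). Of 17 tested Fc, complement and pattern receptors it was the only one higher and CD14 the only one lower (median −0.04).

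Migration genes that the study names from these libraries were also compared. PREX1, a guanine nucleotide exchange factor for Rac, rose from 11.8 and 10.2 to 63.6 and 75.2 in PLB-985 and from 23.1 and 15.3 to 80.0 and 91.1 in HL-60 cells (difference 0.43 ± 0.30, adjusted p = 0.655). DOCK5, of the same function, rose from 1.03 and 1.98 to 3.85 and 6.38 and from 2.43 and 2.15 to 4.43 and 5.92 (0.38 ± 0.27, adjusted p = 0.662). For VAV1, ARHGEF2, ARHGEF6 and PLEKHG3, other exchange factors, the differences lay between −0.15 and 0.13, with adjusted p of 0.931 or more.

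In 17 genes the responses of the lines each passed and went in opposite directions, 10 with a fall in PLB-985 cells and 7 with a rise, DHX37 among the latter. Only 29 of the 7012 genes whose response passed in both lines were opposite in sign at all. ECI2, an isomerase of fatty acid oxidation (chromosome 6), fell from 16 and 17.8 to 6.3 and 6.92 in PLB-985 cells and rose from 0.103 and 0.0638 to 2.17 and 2.93 in HL-60 cells (−2.94 ± 0.25, adjusted p = 0.0027). MPZL1, an adhesion-related membrane protein, fell from 20.9 and 24.3 to 12.6 and 14.1 in PLB-985 and rose from 2.57 and 4.46 to 11.7 and 11 in HL-60 cells, so that the lines met (−2.20 ± 0.24, adjusted p = 0.005). CYFIP1, a subunit of the actin-regulating WAVE complex, fell from 25.6 and 17.3 to 7.69 and 4.19 in PLB-985 and went from 13.5 and 11.2 to 19.8 and 14.4 in HL-60 cells (−2.15 ± 0.23, adjusted p = 0.0046). These 3 passed in all 8 fits with a library left out, and CYFIP1 missed the threshold without the replicate term (0.072).

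The tetraspanin CD82 went from 24.7 and 18.6 to 8.35 and 6.98 in PLB-985 and from 11.3 and 15.7 to 26.4 and 34.2 in HL-60 cells (−2.49 ± 0.42, adjusted p = 0.035), and passed in none of the 8 fits (0.061 to 0.196). The carboxylesterase CES1 rose from 3.54 and 2.77 to 9.09 and 7.72 in PLB-985 and fell from 7.37 and 9.86 to 3.86 and 2.92 in HL-60 cells (2.31 ± 0.36, adjusted p = 0.024), and passed only without HL-60 undifferentiated replicate 1 (up to 0.143 without the others). The order of the lines turned for both genes, but for CD82 the gap before DMSO did not pass (adjusted p = 0.207). MARCKSL1, an actin-linked substrate of protein kinase C, and SEL1L3 fell in PLB-985 and rose in HL-60 cells with differences of −2.17 ± 0.31 and −1.87 ± 0.28 (adjusted p = 0.018 and 0.022), and passed without either undifferentiated HL-60 library. MARCKSL1 also passed without PLB-985 undifferentiated replicate 2, and without the other libraries the adjusted p was up to 0.111 for MARCKSL1 and 0.132 for SEL1L3. MARCKSL1 missed the threshold without the replicate term (0.14). DHX37, an RNA helicase of ribosome assembly that dividing cells use, was listed at 0 in both undifferentiated PLB-985 libraries and at 4.61 and 4.55 with DMSO, against 12.1 and 16.8 before and 5.02 and 4.82 after DMSO in HL-60 cells. An exact 0 in Cufflinks output can be a failed estimate, so the direction and the fitted difference of DHX37 in PLB-985 cells rest on values that may not be measurements.

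Several lists held no gene past the threshold, a share near the 1.31% of all genes and no result about these lists. None of 22 tested proliferation genes and none of 14 genes of MYC and ribosome biogenesis passed (medians 0.26 and −0.06), although 21 and 14 of them fell in each line. None of 18 integrins and adhesion genes, 14 S100 proteins and annexins, 25 genes of actin cytoskeleton and motility, 16 interferon response genes, 22 NF-kB and inflammatory cytokine genes or 14 cell cycle inhibitors passed, with medians from −0.31 to 0.31. SPI1, which encodes PU.1, was at 226 and 177 in PLB-985 and 189.8 and 185 in HL-60 cells with DMSO (difference 0.37, adjusted p = 0.471), and CEBPE, a factor of granulocyte maturation, was at 50.5 and 38.5 against 31.1 and 25.8 (0.71, adjusted p = 0.734).

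The gaps that DMSO left could be compared with libraries whose levels do not enter the difference. These libraries did share in the filter and the estimate of the spread, so they are not an independent check. The same share over all genes with a gap after DMSO was not taken. Each line also had 2 replicates after 6 days in which the serum supplement Nutridoma (2%) replaced most of the FBS (0.5% left) beside the same DMSO dose, and 23.9% of all genes differed between the lines in that state. Of the 87 genes with a line difference in the DMSO response and a passing gap after DMSO, 79 had a passing gap in the same direction there and 1, CHI3L1, in the other. HPGD was at 0.166 and 0.216 in PLB-985 and 257 and 124 in HL-60 cells with Nutridoma, and PLXDC2 at 0.0104 and 0 against 9.53 and 8.93. CD14 was not silent in PLB-985 cells with Nutridoma, at 18.5 and 23.2 against 518 and 376 in HL-60 cells, and CD300E was at 15.5 and 20.7 against 49.3 and 42.9. STEAP4 likewise was at 24.6 and 23.9 against 205 and 338, so for these 3 genes the PLB-985 cells reached levels under Nutridoma that they did not reach with DMSO alone. CHI3L1 was at 30.4 and 18.2 in PLB-985 and 85.1 and 99.2 in HL-60 cells, the reverse of its order after DMSO alone. SLAMF8 was at 0.649 or less in HL-60 cells before DMSO and with DMSO alone. With Nutridoma it was at 24.75 and 59.9 in HL-60 and 0.714 and 0.413 in PLB-985 cells.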

How the data were processed

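PolyA-enriched RNA was sequenced as single reads of 75 bases. Per the labels and the study's methods, the authors aligned them with STAR 2.4 to GRCh38.p5 with GENCODE release 24 and obtained FPKM, 1 deposited value per gene and library, with Cufflinks 2.2.1. The authors' second table holds log10 values after scaling each library by a set of uniformly expressed genes, with values of 0 set to −4. The normalized FPKM used here are the deposited FPKM times the factor between these tables. The tables list 60707 genes.

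Limma 3.58.1 in R 4.3.3 was fitted to log2(normalized FPKM + 1) of all 12 replicated libraries, with 6 group terms, the replicate number as a block and a variance trend, leaving 5 residual degrees of freedom. The p-values are two-sided, adjusted by Benjamini-Hochberg over the 13778 genes within each comparison. Deviations of same-numbered libraries from the group means correlated at 0.736 to 0.852 for each pair of groups. The replicate number was a block by the set design of the comparison, not because of these correlations, and the labels do not tie it to a day. The p-values measure the spread between these libraries.

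The genes named are the 15 most positive and 15 most negative protein-coding genes past the threshold with the same sign in both replicates, the 8 largest with opposite responses, up to 5 passing members of each of 33 gene lists, and markers the study names. Others are said to be picked after their values were seen. Some genes that the rule names are not reported here. The members and lists were chosen with earlier results of these data known. Protein-coding genes and chromosomes were taken from GENCODE 44. The tests were tried on simulated data. The alternatives were no block, FPKM without the authors' scaling, scaling by median of ratios, 0.1 or 0.5 added before the log, a filter of 5 or none, no variance trend, the 8 libraries alone, other row sets and each library left out. The comparison with Nutridoma libraries was added after the values were seen. Tables were read with pandas 2.3.3 and drawn with matplotlib 3.10.9 in Python 3.11.15.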

Additional observations from a re-analysis of the deposited data

Results flagged for a closer look

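The response to DMSO differed between the lines by the test of the difference itself for 180 genes. In the 8 genes of the named set with a passing response of opposite sign in each line, both replicates moved in the opposite direction to those of the other line. The log2 difference of the responses, PLB-985 minus HL-60, was 2.31 for CES1, which rose in PLB-985 and fell in HL-60 cells. It was −2.94 for ECI2, −2.49 for CD82, −2.20 for MPZL1, −2.17 for MARCKSL1, −2.15 for CYFIP1 and −1.87 for SEL1L3, which fell in PLB-985 and rose in HL-60 cells. The fitted value for DHX37 was 3.85, but it rests on a listed 0 in both undifferentiated PLB-985 libraries, which may be a failed estimate, and is not a fold. Single libraries could not be screened for outliers, because each group had 2.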

How the results depend on the processing

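With 2 libraries per group and no read counts, the number of genes that pass depends on the settings. None of the 180 genes changed sign under an alternative in which it was tested, but these genes were chosen by the same libraries. Without the replicate block, which pairs same-numbered libraries, 114 genes passed (36 higher, 78 lower), all among the 180. The gaps between the lines then passed for 1145 genes before and 801 after DMSO, against 1947 and 1428. An added constant of 0.1 gave 77 genes (33 higher, 44 lower, 65 shared), no filter 325 (116 and 209, 137 shared, among 30661 rows) and a filter of 5 normalized FPKM 89 (37 and 52). The 8 libraries alone gave 39 higher and 102 lower genes. FPKM without the authors' scaling gave 159 and median-of-ratios scaling 179. The median HL-60 response moved from −0.11 to 0.02 without the scaling, and the median line difference from −0.03 to −0.06. Leaving out 1 library gave 49 to 198 genes, 16 to 78 higher and 33 to 120 lower, and 876 to 1757 and 465 to 1735 for the gaps before and after DMSO. The cause of these shifts was not tested, except that a filter or a left-out library changes the number of genes or libraries. Of the 46 named genes past the threshold, 23 passed in every fit with a library left out, 18 under every other alternative run and 15 under both. None of the 9 named genes that missed the threshold passed under any of these settings. The DMSO response in each line, and both correlations across genes, moved by less than 1.5 times and 0.1.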

Other observations

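Genes named in this section were picked after their values were seen, unless named above. T cell receptor beta variable genes, a cluster on chromosome 7, were seen in undifferentiated HL-60 cells alone. TRBV7-4 fell from 16.9 and 16.03 to 0.359 and 0 in HL-60 cells and was at 0.128 or less in PLB-985 cells (difference 3.82 ± 0.25, limma adjusted p = 0.001). TRBV6-5 fell from 11.3 and 17.3 to 0.587 and 0 and was at 0.182 or less in PLB-985 cells (adjusted p = 0.0045). TRBV6-6 was lower, at 1.49 and 1.32 before DMSO (adjusted p = 0.04), and passed in none of the 8 fits with a library left out. Variable genes resemble one another, so reads may be split between them. CD247, the T cell receptor zeta chain, showed the reverse, at 8.09 and 5.45 in undifferentiated PLB-985 cells and at 0.32 or less elsewhere (−2.78 ± 0.29, adjusted p = 0.0045). TBXA2R, the thromboxane receptor, fell from 7.01 and 4.37 to 0.0722 and 0.0185 in PLB-985 cells and was at 0.115 or less in HL-60 cells (adjusted p = 0.0045). The proteoglycan SDC1 fell from 7.86 and 6.69 to 0.521 and 0.45 in PLB-985 cells (adjusted p = 0.0027).

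Chromosome 8 held 13 of its 361 tested protein-coding genes among the 180 (3.6%, against 1.52% over all chromosomes), the highest share of any chromosome. Of the 13, 12 were lower in PLB-985 cells, LPL, DEFA1 and DEFA1B among them. The near-identical copies DEFA1 and DEFA1B count as separate genes here. The noncoding CCDC26 on the same chromosome went from 3.79 and 3.81 to 0.078 and 0.0172 in PLB-985 and from 0.814 and 0.792 to 0.0248 and 0.0176 in HL-60 cells (−1.38 ± 0.18, adjusted p = 0.011), and passed only without either undifferentiated HL-60 library (0.052 to 0.080 without each of the other 6). Chromosome 19 held 22 of 852 (2.58%). Among genes that rose in both lines, LILRA2, a leukocyte receptor, went from 4.91 and 3.25 to 56.9 and 49.5 in PLB-985 and from 23.2 and 23.3 to 58.1 and 51.6 in HL-60 cells, ending level (adjusted p = 0.0045). HMGA1, a chromatin protein of blasts, fell in both lines but less in PLB-985, from 742 and 792 to 194 and 177, against 682 and 588 to 67.6 and 63.6 in HL-60 cells (adjusted p = 0.0078), and missed the threshold without PLB-985 undifferentiated replicate 1, PLB-985 DMSO replicate 1 or either HL-60 DMSO library (0.054 to 0.071). The count by chromosome is a description and was not tested.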
